A study of Macaca mulatta with 102 samples.

Results

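Milk carries living cells shed or recruited into it, and the fraction that is spun down from milk holds a mixture of leukocytes and epithelial cells, whereas milk fat globules enclose cytoplasm of the secretory epithelium and a mammary biopsy holds epithelium with its stroma. Transcripts that are abundant in the cell pellet and scarce in both of the other materials are therefore of interest as a signature of the cells that milk carries. The transcripts described here were chosen by their levels, as those whose mean FPKM (fragments per kilobase of transcript scaled to the mapped reads of the library, a level per length) in the samples labelled Cells was at least 2, at least 3 times the mean in the samples labelled Bx (mammary biopsy) and at least 3 times the mean in those labelled Fat, with a locus of over 1000 bases. Of 42701 Ensembl transcripts of the rhesus macaque, 311 met these conditions, at 271 separate loci. Because the transcripts were chosen by the mean levels in Cells, Bx and Fat, the differences between these types are given as descriptions, with no test.

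The samples came from 6 lactating rhesus macaques (Macaca mulatta), called M1 to M6 in the labels, with no treatment or genotype given. There were 6 biopsies (1 per animal, of day 30 post-partum in M3, M4 and M6 and of day 90 in M1, M2 and M5), 12 milk cell samples (each animal on days 30 and 90) and 10 milk fat samples (M1, M2, M3 and M6 on day 30 and every animal on day 90). A further 6 samples of day 90 carry the labels FatS10 (M1, M2, M5 and M6), FatsS10 (M4) and Skim10m (M3), and took no part in the choice of transcripts. The study describes cell-free milk of day 90 from as many samples, but the labels do not call these samples cell-free, so what material they hold is uncertain. The 34 samples were each sequenced in 3 technical runs, which were averaged. The files name transcripts by identifier and locus only and do not pair them with genes, so the transcripts are called here by the position of their locus on rheMac2, and 0 of the genes on the lists of cell type markers and pathways drawn up for this work could be looked up. Whether the pellet held the cell types expected of it could not be checked here by markers for the same reason. The study itself reported that transcripts of immune cell markers were highest in its milk cell samples, which also carried an epithelial signature.

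Depth relative to the median sample, estimated from the spacing of low FPKM, was 0.850 to 1.19 in milk cells, 0.741 to 1.37 in biopsies, 0.742 to 1.63 in milk fat and 0.918 to 1.28 in the samples with other labels. The 10 most abundant transcripts of the series, none of which is among the 311, held 54.5% to 78.0% of the summed FPKM of a milk cell sample. In the 2 milk cell samples of M2 this share was 54.5% on day 30 and 64.0% on day 90, which are the lowest of the 12, and the median-of-ratios scaling factors of those samples, 1.44 and 1.45, were the highest. FPKM are shares of a library, so fewer cells of a type and less RNA per cell cannot be told apart in these bulk samples.

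The summed level of the 311 transcripts differed far more among milk cell samples than among any of the others. On day 30 it was 1078 FPKM in M1, 15392 in M2, 618 in M3, 878 in M4, 3713 in M5 and 830 in M6. On day 90 it was 724 FPKM in M1, 4978 in M2, 636 in M3, 1529 in M4, 881 in M5 and 728 in M6. M2 was the highest animal on both days, M5 followed on day 30 and M4 on day 90, and the other 8 samples lay between 618 and 1078. The 3 technical runs of the day 30 sample of M2 gave sums between 15253 and 15479, and the coefficient of variation (CV) between runs was at most 2.68% in the 12 samples, so the spread lies between samples and not between runs. As a share of all FPKM, the 311 transcripts held 1.61% of the day 30 sample of M2, 0.517% of its day 90 sample and 0.0536% to 0.338% of the other 10.

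**Figure D1:**
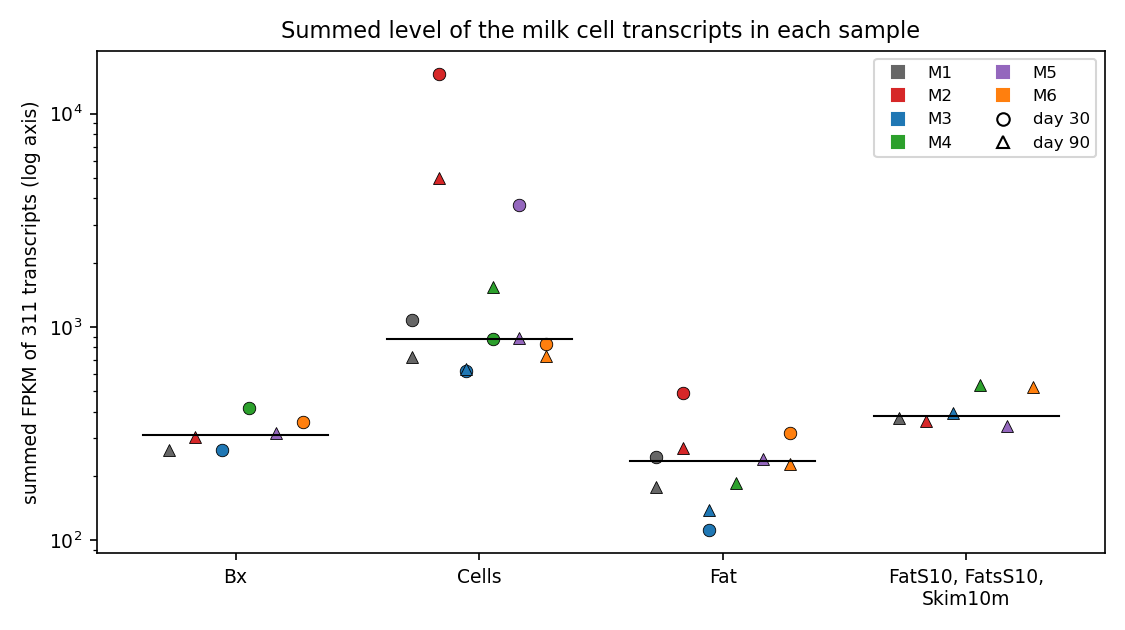
Summed FPKM of the 311 transcripts (log axis) in each of the 34 samples, by label, with animals as colours, days as marker shapes and the median of each label as a line. Milk cell samples range from 618 to 15392 and every one lies above every biopsy and milk fat sample, with both M2 samples and the day 30 sample of M5 far above the rest.

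The sums in the biopsies lay between 263 and 416 FPKM and those in milk fat between 111 and 490. Every milk cell sample was thus above every biopsy and every milk fat sample, which the choice of transcripts favours. The mean sum was 2666 ± 4241 (SD, n = 12) in milk cells, 320 ± 58.4 (n = 6) in biopsies and 240 ± 107 (n = 10) in milk fat, so milk cells were 8.34-fold above biopsies and 11.1-fold above milk fat. By medians the ratios were 2.84 and 3.77. Without M2 the milk cell mean was 3.60-fold above that of the biopsies and 5.66-fold above that of milk fat. M2 alone held 63.7% of the FPKM summed over the 12 milk cell samples.

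The M2 biopsy, taken on day 90, was within the range of the other biopsies at 304 FPKM. The milk fat of M2 was the highest of its kind on both days, at 490 FPKM on day 30, where M1, M3 and M6 had 246, 111 and 318, and at 271 on day 90, where the other animals had 138 to 239. The run titles of M2 begin with the same number as those of M1, whose milk cell sums were 1078 and 724, and the labels do not say what that number stands for.

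How far each transcript rested on M2 was described by the share of its FPKM, summed over the 12 milk cell samples, that the 2 samples of M2 held. The median share was 65.4% over the 311 transcripts and 21.0% over all 9862 transcripts with a locus of over 1000 bases and a milk cell mean of at least 2. It was over 50% in 208 of the 311 (66.9%) and in 378 of the 9862 (3.83%). The day 30 sample of M2 was the highest of the 12 for 247 of the 311 (79.4%) and for 3208 of the 9862 (32.5%). For 283 transcripts that were at least 3 times milk fat but less than 3 times the biopsies, the median M2 share was 36.5%. These shares come from the samples that chose the transcripts and carry no test.

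Membership followed the same animal. With M2 left out of all 3 types, 84 transcripts met the conditions, of which 82 were among the 311. Leaving out any other animal left 321 to 413 transcripts and kept 295 to 308 of the 311. With medians in place of means, 117 transcripts met the conditions, 87 of them among the 311. With FPKM scaled by median-of-ratios factors, 200 did, 199 of them among the 311. With the milk cells of day 30 alone 446 transcripts passed and with those of day 90 alone 192, which held 298 and 151 of the 311.

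**Figure D2:**
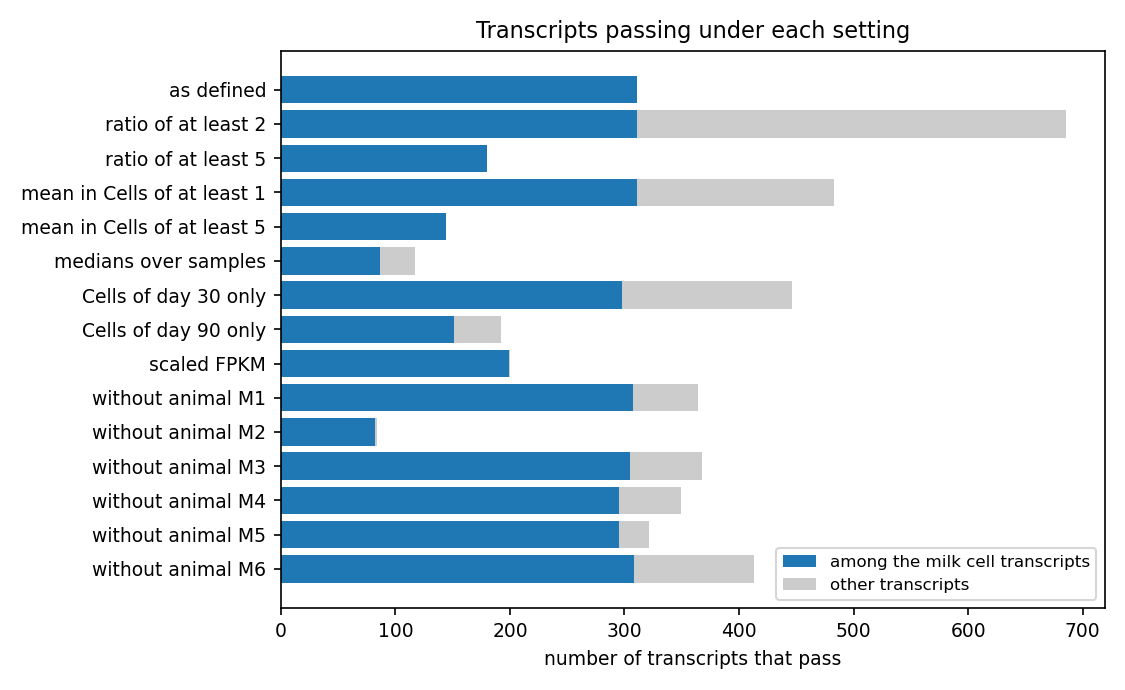
Number of transcripts that meet the conditions as defined and under each other setting, with those that belong to the 311 in blue and other transcripts in grey. Leaving out M2 gives 84 and medians give 117, while leaving out any other animal gives 321 to 413.

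Applied within each animal, the conditions held for 308 of the 311 transcripts in M2, 191 in M5, 100 in M4, 67 in M1, 45 in M3 and 21 in M6. They held in a single animal for 71 transcripts, in 2 animals for 137, in 3 for 55, in 4 for 26, in 5 for 14 and in all 6 for 8. Of the 12 milk cell samples, 12 were at 2 FPKM or more for 49 transcripts, 7 to 11 for 80, 4 to 6 for 91 and 1 to 3 for 91. Every milk cell sample was above every biopsy and milk fat sample for 22 of the 311 transcripts, beside 0.345% of the 9862, a comparison that the conditions themselves used. The count was 58 without M3 and 41 without M6. Leaving out samples can only keep or raise such a count for any transcript. The share over the 9862 was not taken in these settings, so nothing is read from the rise.

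2 kinds of transcript could be told apart once the transcripts that overlap each one were considered. Cufflinks divides the reads of a locus between its transcripts, so a transcript can be high in one type because its locus is, or because it receives a larger share of a locus whose sum does not differ. No other transcript overlapped 100 of the 311, only other members overlapped 28, and 183 overlapped transcripts outside the group. When FPKM were summed over each transcript and all that overlap it, without regard to strand, the sum still met both 3-fold conditions for 218 transcripts (called whole-locus here) and did not for 93 (called transcript-level). A sum that missed a condition could still differ between the types. The division was made after the levels had been seen and is a description.

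The whole-locus transcripts carried the M2 pattern. Their summed level was 14252 FPKM in the day 30 sample of M2, 4328 in its day 90 sample, 3169 in the day 30 sample of M5 and 1051 in the day 90 sample of M4, against 282 to 652 in the other 8. The day 30 sample of M2 stood at a median of 34.3 times a transcript's own median over the 12 samples. The median M2 share was 74.6%, and 37 of the 218 met the conditions without M2.

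The transcript-level transcripts were far more even. Their summed level was 1141 FPKM in the day 30 sample of M2, 650 in its day 90 sample and 232 to 544 in the other 10, and the day 30 sample of M2 stood at a median of 1.59 times the transcript's own median, beside 1.26 over the 9862 transcripts. The median CV over the 12 samples was 0.447, against 1.92 for the whole-locus transcripts and 0.325 over the 9862. The median M2 share was 24.3%, and 45 of the 93 met the conditions without M2. Of the 22 transcripts whose milk cell samples lay above every biopsy and milk fat sample, 21 were of this kind.

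**Figure D3:**
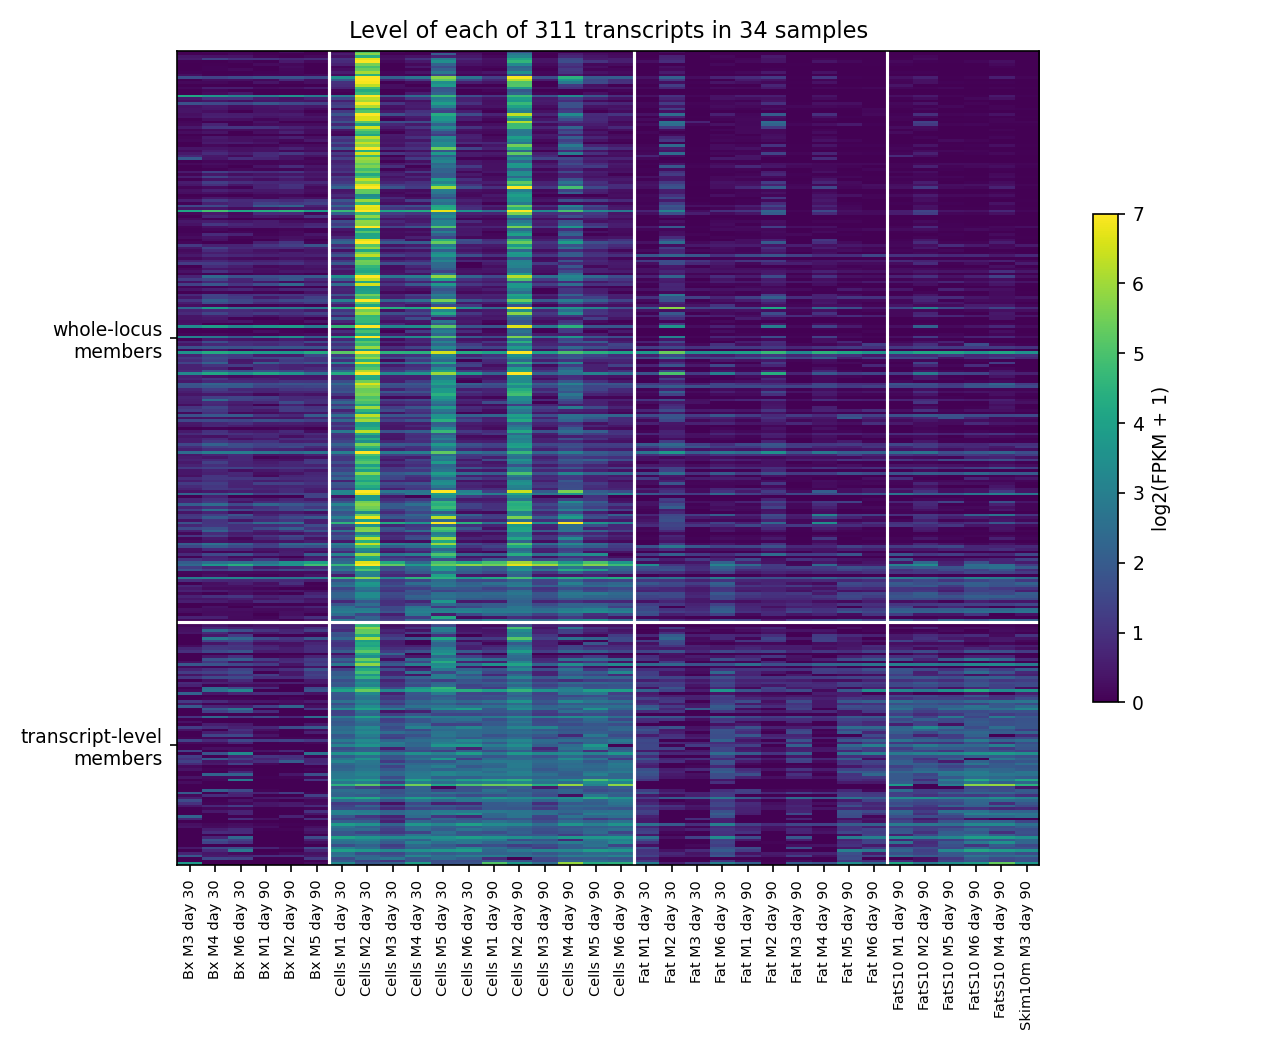
Level of each of the 311 transcripts (rows, log2(FPKM + 1), colours capped at 7) in the 34 samples (columns), with whole-locus transcripts above the white line and transcript-level transcripts below it, each sorted by the share held by M2. The upper block is bright in the M2 samples, the day 30 sample of M5 and the day 90 sample of M4, and the lower block is even over milk cells and is also seen in the 6 samples with other labels.

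The highest transcript of all was ENSMMUT00000005432, at chr5:55943907-55945811. Its level in milk cells on day 30 was 22.5 FPKM in M1, 581 in M2, 18.3 in M3, 11.9 in M4, 368 in M5 and 21.6 in M6. On day 90 it was 5.25 FPKM in M1, 252 in M2, 9.55 in M3, 135 in M4, 11.5 in M5 and 6.79 in M6. Both M2 samples, the day 30 sample of M5 and the day 90 sample of M4 were high, and the other 8 were at most 22.5. Biopsies had 0.514 to 4.78 FPKM and milk fat 0.137 to 10.1, so that the lowest milk cell samples overlapped milk fat. The conditions nonetheless held within each of the 6 animals, and likewise for the overlapping transcript at chr5:55942657-55945805, with a milk cell mean of 45.1. They were the only whole-locus transcripts of which this was true.

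The transcript at chr9:67925094-67938550 had 5.15 to 762 FPKM in milk cells, with 762 and 200 in M2, 107 in the day 30 sample of M5 and at most 30.3 in the other 9. Biopsies had 13.4 to 29.2 and milk fat 0.0773 to 7.69, so 8 of the 12 milk cell samples were not above the highest biopsy. It was one of the transcripts whose membership was lost without M2.

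The transcript at chr17:10169222-10193917 had 700 and 120 FPKM in the milk cells of M2, 51.6 in the day 30 sample of M5, 21.3 in the day 90 sample of M4 and 1.49 to 10.5 in the other 8. Biopsies had 1.62 to 2.55 and milk fat 0.0375 to 3.43. It met the conditions without M2, and M2 held 88.3% of its milk cell FPKM.

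At chr1:39331551-39344926 the milk cells of M2 had 364 and 68.8 FPKM, the day 30 sample of M5 35.9, the day 90 sample of M4 11 and the other 8 samples 0.468 to 3.26. Biopsies reached 0.743 and milk fat 1.24, the latter in the day 30 sample of M2. This locus held 5 members, the most at any locus, with milk cell means of 5.23 to 40.9. The mean was 160-fold that of the higher of the other types, the largest ratio of any whole-locus transcript with a milk cell mean of at least 10.

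The transcripts at chr11:123951882-123953051 and chr1:199407843-199417824 were led by the day 30 sample of M2 as well. The first had 335 and 152 FPKM in M2, 64.6 in the day 30 sample of M5 and 29.0 in the day 90 sample of M4, with 0.826 to 3.66 in the other 8, and at most 0.975 in biopsies and 3.04 in milk fat. The second had 270 FPKM in the day 30 sample of M2, 41.7 in that of M5 and 21.1 in the day 90 sample of M2, with 0.361 to 3.80 in the other 9. It was at most 0.615 in biopsies and 0.440 in milk fat. Both met the conditions without M2.

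Other transcripts among the most abundant were also present in biopsies or milk fat. The transcript at chr19:17752333-17756993 had 14.4 to 570 FPKM in milk cells, 11.2 to 18.7 in biopsies and 9.23 to 40.3 in milk fat, with the highest of each milk type in the day 30 sample of M2. The transcript at chr7:118157224-118173580 had 2.31 to 475 FPKM in milk cells, 4.10 to 13 in biopsies and 0.417 to 53.2 in milk fat, again highest in M2 on day 30 in both milk types. The transcript at chr3:102963348-102991955 had 3.56 to 213 FPKM in milk cells, 5.30 to 17.1 in biopsies and 0.606 to 30.9 in milk fat. None of these met the conditions without M2, and their milk cell samples overlapped both other types.

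Transcripts at chr1:139825788-139829635, chr13:116017412-116021274 and chr1:177795006-177798265 completed the M2-high set among the most abundant. Their day 30 levels in M2 were 248, 266 and 349 FPKM, and their highest level in any animal other than M2 was 36.6, 55.3 and 24.8, in each case in the day 30 sample of M5. Biopsies had 6.85 to 14.1, 0.634 to 4.23 and 6.62 to 16.9 FPKM. The milk cell medians were 9.16, 6.41 and 3.60, beside biopsy medians of 10.7, 2.52 and 9.19. Only that at chr13 116.0 Mb met the conditions without M2. That at chr1 177.8 Mb had the highest CV over the 12 samples, 2.76, among transcripts with a milk cell mean of at least 10. Close to it were those at chr12:81960443-81961523 (98.4 FPKM in M2 on day 30, 11.7 in M5 on day 30), and chr1:30837293-30867840 (102 and 6.37).

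The transcript at chr4:13240480-13254464 had 80.0 and 34.0 FPKM in M2, 13.1 in M5 on day 30 and at most 1.26 in the other 9, 5 of which were below 0.001. Biopsies had at most 7.07e-05 FPKM and milk fat at most 1.41, in M2 on day 30. Of the 28 samples of the 3 types, only the milk cells of M2 on both days and of M5 on day 30 were above 2 FPKM.

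The transcript at chr14:68174708-68176325 differed from the rest of the most abundant. It had 221 and 103 FPKM in M2, but 13.1 to 65.1 in the other 10, with no separate group of high samples below M2. Biopsies had 4.11 to 27.9 and milk fat 0.115 to 9.54, so every milk cell sample was above every milk fat sample while some overlapped the biopsies. M2 held 45.7% of its milk cell FPKM, and it did not meet the conditions without M2.

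Among the transcript-level members, ENSMMUT00000019492 at chr1:185383238-185392409 had the largest ratio to the other types. Its level in milk cells on day 30 was 21.5 FPKM in M1, 36.0 in M2, 14 in M3, 43.7 in M4, 16.2 in M5 and 31.3 in M6, and on day 90 it was 42.2 in M1, 41.8 in M2, 20.1 in M3, 58.6 in M4, 7.78 in M5 and 55.1 in M6. M4 was the highest animal on both days, followed by M2 on day 30 and M6 on day 90, and M3 and M5 were the lowest on both. Biopsies had at most 4.5e-05 FPKM and milk fat at most 0.0115, so the groups did not overlap. The transcript that overlaps it, at chr1:185383175-185403872, had 202 ± 49.9 FPKM in milk cells (SD, n = 12), 210 ± 40.3 in biopsies (n = 6) and 235 ± 55.7 in milk fat (n = 10), and the member made up 13.8% of the summed mean of the pair in milk cells. The sum over the pair did not meet the conditions.

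The 4 evenest transcripts with a milk cell mean of at least 10 were all transcript-level. That at chr1:154803568-154844828 had 7.77 to 15.6 FPKM over the 12 milk cell samples (CV 0.186), up to 4.12 in biopsies and up to 9.37 in milk fat. Those at chr4:8348107-8361395, chr4:154526376-154540321 and chr6:53610896-53630851 had CVs of 0.294, 0.314 and 0.322. At chr4 8.3 Mb the milk cells had 5.87 to 14.3 FPKM and overlapped both biopsies (up to 9.20) and milk fat (up to 7.54). At chr4 154.5 Mb they had 4.16 to 14.9 and overlapped both as well, at up to 6.11 and 7.21. At chr6 53.6 Mb they had 6.77 to 17.9, above every biopsy (up to 0.469) and every milk fat sample (up to 6.03). A transcript with a longer locus overlapped each of the 4. The most abundant such transcript had 21.7 FPKM in milk cells, 17.4 in biopsies and 20.8 in milk fat at chr1 154.8 Mb. The values in that order were 26.8, 21.5 and 26.8 at chr4 8.3 Mb and 53.9, 32.7 and 34.2 at chr4 154.5 Mb. They were 10.5, 4.05 and 4.58 at chr6 53.6 Mb, where the sum over all overlapping transcripts was 40.4, 4.69 and 14.2. That sum missed only the 3-fold condition against milk fat.

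**Figure D4:**
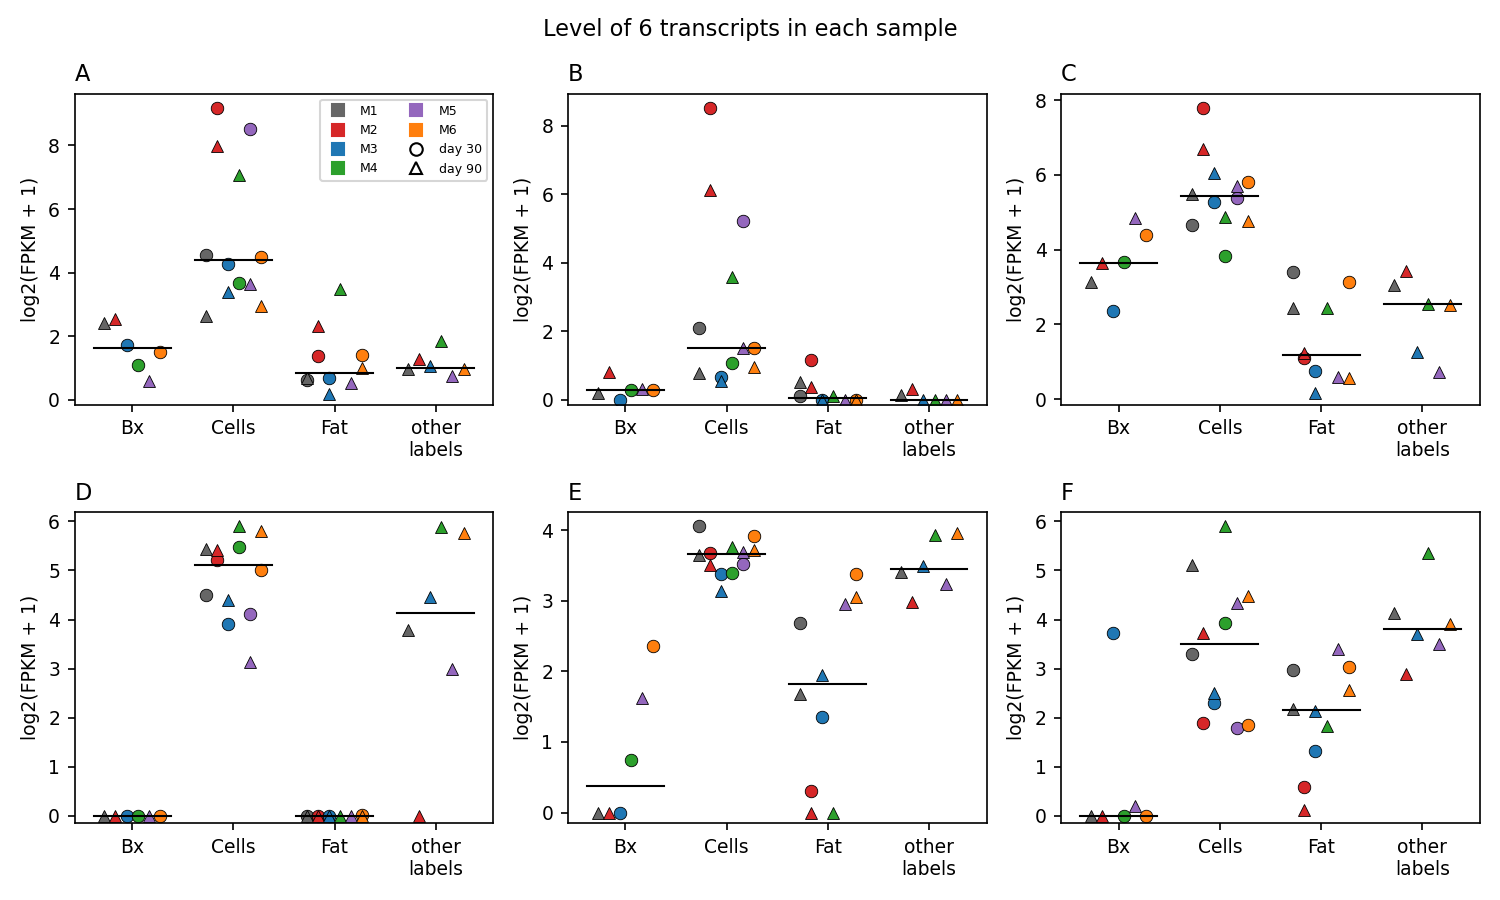
Level (log2(FPKM + 1)) in each sample of the transcripts at chr5 55.9 Mb (A), chr1 39.3 Mb (B), chr14 68.2 Mb (C), chr1 185.4 Mb (D), chr1 154.8 Mb (E) and chr6 147.9 Mb (F), with animals as colours, days as marker shapes and medians as lines. A and B are whole-locus transcripts led by M2. In C the milk cells of M2 are the highest, with no separate group of high samples among the other animals. D to F are transcript-level members for which most of the samples with other labels lie within the range of milk cells. Those of M2 and M5 in D and of M2 in E lie below it.

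The 6 day 90 samples labelled FatS10, FatsS10 and Skim10m took no part in the choice of transcripts, but the milk cells and milk fat set beside them did. The sum of the 311 transcripts was 372 FPKM in M1, 363 in M2, 395 in M3, 536 in M4, 344 in M5 and 523 in M6. M2, the highest animal in milk cells, was the second lowest here, and its sum was 7.29% of that in its own day 90 milk cells, whereas the other 5 were at 35.0% to 71.8% of theirs. Relative to the same animal's day 90 milk fat, the sums were 1.34- to 2.88-fold. The transcripts were chosen as low in milk fat, which favours high ratios to it.

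The 2 kinds of transcript parted in these samples. The whole-locus sum was 99.4 to 174 FPKM, which was 4.01% to 45.3% of the same animal's milk cells and 0.735- to 1.58-fold its milk fat. The transcript-level sum was 190 to 396 FPKM, which was 29.1% to 107% of the milk cells and 1.68- to 10.2-fold the milk fat. Per transcript, the mean over the 6 samples was a median of 0.0169 times the milk cell mean for the whole-locus members and 0.628 times for the transcript-level members, beside 1.03 over the 9862 transcripts. It reached 1 in 3 or more of the milk cell mean for 15 of the 218 and 72 of the 93, beside 95.7% of the 9862. The milk cell mean in these ratios is the one that chose the transcripts, and it is raised by M2 in the whole-locus members. The milk fat samples also took part in that choice, as low ones, so no test was made against either.

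The transcript with the highest level in these samples relative to milk cells was at chr6:147888988-147921101. It had 6.45 to 39.7 FPKM in the 6 samples and 2.47 to 58.6 in milk cells, with the highest value of both in M4 on day 90. In contrast to most members, M2 held only 8.11% of its milk cell FPKM. The transcripts at chr5:9805022-9867919 and chr1:187128650-187143738 had 0.858 to 3.66 and 1.76 to 4.87 FPKM in the 6 samples, beside 0.247 to 5.34 and 0.572 to 5.38 in milk cells. At chr1 185.4 Mb, 4 of the 6 samples were within the range of milk cells, at 12.9 to 58.2 FPKM, while that of M5 was at 6.97 and that of M2 at 0.000115.

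**Figure D5:**
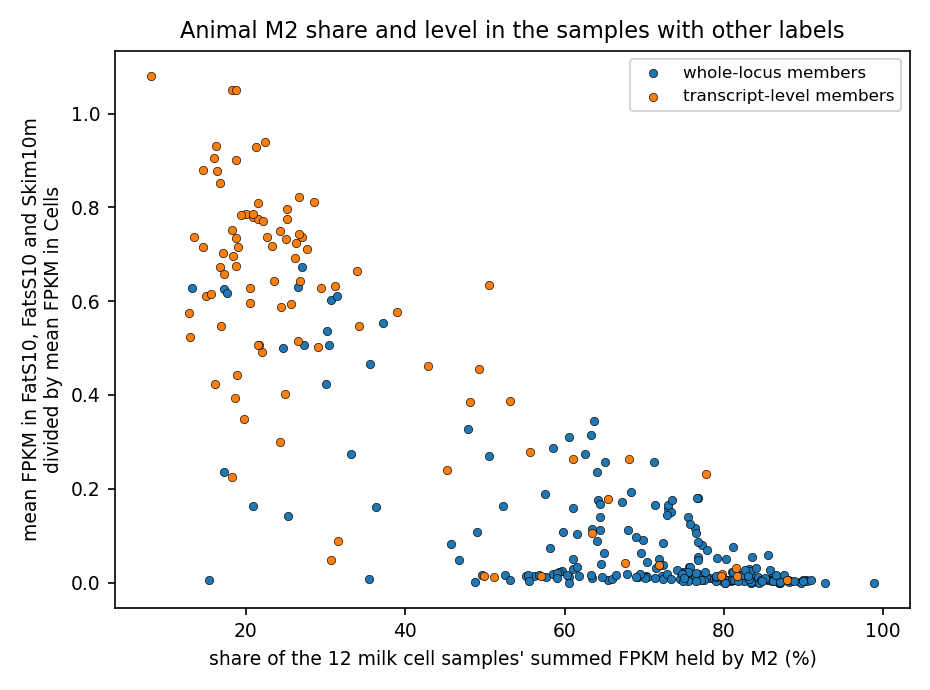
For each of the 311 transcripts, the share of FPKM over the 12 milk cell samples held by M2 (horizontal axis, %) and the mean FPKM in the 6 samples labelled FatS10, FatsS10 and Skim10m divided by the mean in Cells (vertical axis). Whole-locus transcripts, with a median share of 74.6%, lie mostly near 0 on the vertical axis, and transcript-level transcripts, with a median share of 24.3%, mostly lie well above it.

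Days 30 and 90 of milk cells were compared with limma on log2(scaled FPKM + 1), 6 samples against 6, over the 13815 transcripts with a mean of at least 1 FPKM in milk cells, with all 311 tested. Of these transcripts, 3.55% were called higher on day 90 and 1.31% higher on day 30 at an adjusted p under 0.05. Among the 311, 1 was called higher on day 90 and 0 higher on day 30, and 11 had an unadjusted p under 0.05, which 28.8% of all transcripts tested had. The median log2 difference (day 90 minus day 30) was -0.49 over the 311, with 261 below 0, and -0.04 over all transcripts tested. Because the day 30 sample of M2 weighed most in the choice of transcripts, a lower level on day 90 was favoured by that choice. Without M2 the median was -0.29 over the 254 members that then passed the filter. These members had still been chosen with M2 in the mean. Without M3, 6 members and 19.7% of all transcripts were called, without M4 1 member and 0.701%, and without M2 0 members and 0.00756%. Without M1, M5 or M6 no transcript was called, member or not. In these 3 fits 7, 6 and 8 of the 311 members had an unadjusted p under 0.05 by limma. Among all transcripts tested, 2899 of 13867, 2687 of 13734 and 2435 of 13950 had.

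The transcript called was that at chr5:9805022-9867919, a transcript-level member. Its level on day 30 was 1.24 FPKM in M1, 1.25 in M2, 0.247 in M3, 1.87 in M4, 0.539 in M5 and 0.686 in M6. On day 90 it was 2.97 in M1, 3.34 in M2, 0.903 in M3, 2.82 in M4, 3.22 in M5 and 5.34 in M6. It was higher on day 90 in each of the 6 animals, with a log2 difference of 1.04 ± 0.244 (SE) and an adjusted p of 0.0395 by limma. The call was lost without M1, M2, M4, M5 or M6, with adjusted p of 0.146, 0.0953, 0.0571, 0.169 and 0.204. Its milk cell mean of 2.03 also lay just above the level that the conditions required.

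The labels tie both days to the same animal. With animal as a block, 11.5% of transcripts were called higher on day 90 and 13.7% higher on day 30, and 8 and 19 of the 311 were. Among named transcripts, those at chr3 103.0 Mb and chr7 118.2 Mb were then called lower on day 90, with log2 differences of -1.42 and -1.77 (adjusted p = 0.0110 for each by limma). Those at chr6 147.9 Mb and chr1 187.1 Mb were called higher, with differences of 1.85 and 1.01 (adjusted p = 0.0110 and 0.0164 by limma). Without the block the adjusted p by limma was, in that order, 0.251, 0.206, 0.0561 and 0.0529. The transcripts at chr3 103.0 Mb and chr7 118.2 Mb did not meet the conditions without M2, and were highest in its day 30 sample. The choice of transcripts thus favoured a lower level on day 90, and nothing is read from the calls in that direction. The transcript at chr5 9.8 Mb was called in both fits.

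Differences between the 6 animals were tested in milk cells with limma's F test, with day as a covariate. Over all transcripts 9.70% were called at an adjusted p under 0.05, and 96 of the 311 were, of which 87 were whole-locus. Choosing transcripts by a mean favours those with 1 high animal, so nothing is read from this count. Without M2, 2.18% of 13219 transcripts were called and 1 of the 254 members tested. The count of members was 34 without M1 (4.29% of all transcripts), 14 without M3 (2.38%), 123 without M4 (7.87%), 157 without M5 (11.6%) and 29 without M6 (4.73%).

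The 6 members that this fit ranked first are given by their levels alone, since the mean that chose them was raised by M2. At chr3 103.0 Mb M2 had 213 and 142 FPKM on days 30 and 90 and the other animals 3.56 to 60.8. At chr3:40525579-40536034 M2 had 27.8 and 12.2 and the others at most 5.28, and at chr3:1790555-1814233 M2 had 34.3 and 20.4 and the others at most 7.37. At chr20:29376869-29432537 M2 had 20.4 and 8.11 FPKM and the others at most 0.670, and at chr1:12089588-12123421 M2 had 12 and 11 and the others at most 2.37. At chr7 118.2 Mb M2 had 475 and 138 and the others at most 100. M2 was above every other animal on both days for each of the 6. Without M2 those at chr20 29.4 Mb and chr1 12.1 Mb fell below the filter, and none of the other 4 was called (adjusted p of 0.136 to 0.187 by limma).

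Over the 12 milk cell samples, which come from 6 animals, the median Spearman correlation between pairs of members was 0.627, beside 0.294 between pairs of the 9862 transcripts. The mean that chose the members was raised by the M2 samples, which favours shared ranks over these same samples, so the correlations are a description. Average linkage gave a group of 277 transcripts (median pairwise correlation 0.699), a group of 32 (0.427) and a group of 2. The group of 277 held 214 of the 218 whole-locus transcripts and had a median M2 share of 70.2%, and the group of 32 held 4 of them, with a median M2 share of 18.8% and a median CV of 0.379. Most of the 93 transcript-level members were also in the group of 277, so the groups do not mirror the whole-locus and transcript-level kinds. In the group of 277 the day 30 samples of M2 and M5 were at a median of 27.2 and 5.90 times the transcripts' own medians, whereas in the group of 32 they were at 1.06 and 0.809. Without M2 the median pairwise correlation was 0.430.

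Chromosome 1 held 55 of the 311 transcripts (17.7%), the most of any, beside 11.4% of the 9862. In 7 places 3 or more loci of members followed each other with gaps under 500 kb. How often such runs occur among the 9862 was not counted, and the intervals were drawn around members, so nothing is read from their number. The widest, chr1:139345834-140188473, held 7 members at 6 loci, with milk cell means of 2.55 to 38.7, among 25 transcripts in that interval with a locus of over 1000 bases and a milk cell mean of at least 2, the highest being the transcript at chr1 139.8 Mb. The tightest, chr4:31210445-31258294, held 7 members at 4 loci within 47.8 kb, with means of 2.14 to 6.57, and these were all of the 7 transcripts in that interval with a milk cell mean of at least 2. A stretch of 5 members at 4 loci, among 7 such transcripts, lay at chr11:8299034-8626676, with means of 2.27 to 12.8. All members in the 7 places were whole-locus, and 2 of them met the conditions without M2.

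The conditions cut through a continuous range. The lowest milk cell means inside were 2.005, 2.035 and 2.049 FPKM and the highest outside, among transcripts that met the other conditions, were 1.999, 1.997 and 1.996. The lowest ratios to the higher of biopsies and milk fat inside were 3.009, 3.022 and 3.024, and the highest outside were 2.994, 2.990 and 2.989. The shortest loci inside spanned 1047, 1050 and 1056 bases and the longest outside 969, 906 and 870. Requiring a ratio of 5 left 180 transcripts and a milk cell mean of 5 left 144.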

How the data were processed

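RNA of 34 samples had been sequenced by the authors from poly(A)-selected libraries as single reads of 100 bases, mapped to rheMac2 with TopHat and Bowtie and summarised with Cufflinks, and the FPKM per Ensembl transcript (release 67) are the values as deposited. FPKM carry no read counts, so no counting interval was computed. Of the columns, 102 (3 technical runs for each sample) were used, and 6 whose names match no sample were not. Runs were averaged. The transcripts and lists were chosen with earlier results of these data known. For tests, each milk cell sample was divided by its median-of-ratios factor, transcripts averaging under 1 FPKM were dropped, and log2(scaled FPKM + 1) was fitted with limma (version 3.58.1, under R 4.3.3), using a trended prior variance, two-sided tests and Benjamini-Hochberg adjustment. Replicates are animals. Pairing of days comes from the labels: deviations from the day means correlated at 0.222 to 0.666 within animals, and the day 30 sample of each animal was closest to its own day 90 sample except that of M5, which was closest to that of M2. Fits and the depth estimate were tested on simulated data. Transcripts were named by rank: the 12 highest, the 6 largest ratios, the calls between days, the 6 largest F, the 4 highest and 4 lowest CV, those beside each threshold and the 4 highest in the samples with other labels, with 1 per locus. Other steps ran in Python 3.11.15, with scipy 1.17.1 for the clustering. Alternatives covered scaling, pseudocount, filters, trend, block, covariate, sums over loci, the conditions and each animal left out. No sequence or gene annotation was used here.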

Additional observations from a re-analysis of the deposited data

Results flagged for a closer look

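Within each group of 4 to 10 samples, the sums of the 311 transcripts and the 28 named transcripts were searched for a highest or lowest sample that stood apart from the next by more than Dixon's 95% limit. Of 145 items and groups tested 71 stood apart, and 64 of the 71 were samples of M2. The members were chosen by a mean that M2 raised, so this pattern was favoured by the choice, and its cause was not tested. Many named transcripts were also picked for high levels or spread, and members vary together, so no rate expected by chance applies.

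In the day 30 milk cells of M2 the sum of 15392 FPKM stood apart, as did 19 named transcripts: 762 at chr9 67.9 Mb, 570 at chr19 17.8 Mb, 700 at chr17 10.2 Mb, 475 at chr7 118.2 Mb, 221 at chr14 68.2 Mb, 335 at chr11 124.0 Mb, 213 at chr3 103.0 Mb, 364 at chr1 39.3 Mb, 248 at chr1 139.8 Mb, 266 at chr13 116.0 Mb, 349 at chr1 177.8 Mb, 270 at chr1 199.4 Mb, 98.4 at chr12 82.0 Mb, 80.0 at chr4 13.2 Mb, 27.8 at chr3 40.5 Mb, 20.4 at chr20 29.4 Mb, 34.3 at chr3 1.8 Mb, 12 at chr1 12.1 Mb and 102 at chr1 30.8 Mb. The same transcripts other than that at chr14 stood apart in its day 90 milk cells, where the sum was 4978 and the levels, in that order, were 200, 201, 120, 138, 152, 142, 68.8, 100, 73.3, 25.3, 21.1, 9.52, 34.0, 12.2, 8.11, 20.4, 11 and 16.8 FPKM.

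The milk fat of M2 stood apart on day 30 for 10 transcripts, with 7.69 FPKM at chr9 67.9 Mb, 40.3 at chr19 17.8 Mb, 3.43 at chr17 10.2 Mb, 53.2 at chr7 118.2 Mb, 2.43 at chr11 124.0 Mb, 1.24 at chr1 39.3 Mb, 11.6 at chr1 139.8 Mb, 1.41 at chr4 13.2 Mb, 1.87 at chr1 12.1 Mb and 0.642 at chr1 30.8 Mb. On day 90 it did so for 8, with 16.6 FPKM at chr7 118.2 Mb, 20 at chr3 103.0 Mb, 6.75 at chr1 139.8 Mb, 0.638 at chr4 13.2 Mb, 3.33 at chr3 40.5 Mb, 0.403 at chr20 29.4 Mb, 1.11 at chr1 12.1 Mb and 0.280 at chr1 30.8 Mb. Among the 4 FatS10 samples that of M2 stood apart for 7, with 1.68 FPKM at chr9 67.9 Mb, 1.30 at chr11 124.0 Mb, 6.10 at chr3 103.0 Mb, 3.57 at chr1 139.8 Mb, 0.0945 at chr20 29.4 Mb, 0.20 at chr1 12.1 Mb and 0.157 at chr1 30.8 Mb.

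Samples of other animals stood apart in 7 cases. These were the FatS10 sample of M6 for the sum (523 FPKM) and for chr5 9.8 Mb (3.66), that of M1 for chr4 13.2 Mb (0.302), the day 90 milk cells of M5 for chr6 53.6 Mb (17.9), and the milk fat of M6 on day 30 for chr1 185.4 Mb (0.0115), of M1 on day 90 for chr1 199.4 Mb (0.256) and of M5 on day 90 for chr1 187.1 Mb (2.08).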

How the results depend on the processing

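The number of transcripts that met the conditions was 311, and it was 685 with a ratio of 2, 180 with a ratio of 5, 483 with a milk cell mean of 1, 144 with a mean of 5, 117 by medians, 192 with day 90 cells only, 200 with scaled FPKM and 84 to 413 without 1 animal. Between days, 672 transcripts were called, and 204 with 75th percentile scaling, 1 without a filter, 0 without scaling and 0 to 2771 without 1 animal. Members called between days numbered 1, and 0 with 75th percentile scaling, without scaling or without a filter, and 0 to 6 without 1 animal. With animal as a replicate block, 3484 transcripts and 27 members were called. Between animals 1340 transcripts were called, and 2085 with 75th percentile scaling, 224 without the day covariate, 524 without a filter, 3243 without scaling and 288 to 1587 without 1 animal. Members called between animals numbered 96, and 14 without the covariate, 4 without a filter, 208 without scaling and 1 to 157 without 1 animal. Without a filter 33419 transcripts were tested in place of 13815; the cause of the other changes was not tested. The ratio of summed levels in milk cells to biopsies was 3.60 to 9.84 without 1 animal, the median ratio of the samples with other labels to milk cells 0.0418 to 0.0985 and the median pairwise correlation 0.430 to 0.705, each of these chosen after seeing the data and farthest from the full value without M2. No direction reversed in the day comparison for the transcript at chr5 9.8 Mb. The members' mean share of milk cell FPKM was 0.267%. Depth in reads is unknown from FPKM, and levels near 0 are estimates that Cufflinks splits between overlapping transcripts.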
